A study of Mus musculus with 10 samples.

Results

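The nuclear genes for mitochondrial protein import, chaperones and proteases were examined in regulatory T cells (Treg) in which Tfam was targeted by Cre. Members were chosen by symbol: genes named Timm or Tomm plus a digit, and 22 further genes for sorting, presequence removal, folding and proteolysis, leaving out pseudogenes. This gave 47 of the 22553 genes in the count table, of which 45 passed the filter on low counts. Tomm20l and Timm8a2 did not pass. The KO libraries came from female C57BL/6 mice of genotype Tfamfl/flFoxp3Yfp-Cre/+, and the Ctrl libraries from Tfamfl/+Foxp3Yfp-Cre/+ littermates, 3 RNA libraries each. YFP-positive cells were sorted from spleen and lymph nodes, and cells of 2 to 3 mice were pooled for each library. Ctrl cells thus also carry 1 floxed Tfam allele, and cells of both groups express Cre from the Foxp3 locus. No source used here gives the age of the mice. Foxp3 is X-linked, so the heterozygous females also hold Treg without Cre, which the sort for YFP leaves out. The ATAC-seq samples, 2 for each genotype, were not analysed here.

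Nearly all mitochondrial proteins are made in the cytosol and enter the organelle through the TOM complex of the outer membrane. From there they pass to the TIM23 or TIM22 complex of the inner membrane, to the SAM complex of the outer membrane, or to the small TIM chaperones between the membranes. Matrix chaperones fold the imported chains and a set of proteases removes damaged ones. When mitochondrial proteins misfold or lose their partners, cells can raise these chaperones and proteases, which is called the mitochondrial unfolded protein response. TFAM packages mitochondrial DNA and acts as a factor in its transcription. Mitochondrial DNA encodes core subunits of the respiratory chain.

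Total gene counts per library were 19087757 to 23794028 in KO and 21419772 to 27490253 in Ctrl. Tfam stood at 15.6, 14.4 and 16.5 CPM (counts scaled to a common depth, with TMM correction for library composition) in KO replicates 1 to 3, against 25.9, 30.6 and 42.4 CPM in Ctrl replicates 1 to 3. The groups did not overlap and the log2 fold change was -1.09 ± 0.17 (SE; edgeR, adjusted p = 0.020). Tfam RNA was thus lower in KO but not absent, and the gene counts do not show which exons its reads came from. Foxp3, which defines the lineage, stood at 818 ± 48.0 CPM in KO and 744 ± 95.3 CPM in Ctrl (SD, n = 3 each), and 6 of 6 Treg markers were detected, summing to 2292 to 2492 CPM in KO and 2265 to 2556 CPM in Ctrl. The 13 protein genes of mitochondrial DNA had a value of 0 throughout, and mitochondrial transcripts are therefore not analysed here. Summed markers of red pulp macrophages lay at 417 to 1178 CPM in KO and 370.3 to 821 CPM in Ctrl, with both libraries numbered 2 the highest of their group. Summed markers of dividing cells lay at 53.6 to 118 CPM in KO and 85.3 to 271 CPM in Ctrl. B cell, erythroid, neutrophil and CD8 T or NK markers stayed at or below 20.4 CPM in every library. No called gene was among these marker lists. Because the libraries are bulk RNA, fewer cells of a type and less RNA per cell cannot be told apart.

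No import, chaperone or protease gene was called between KO and Ctrl by the main test over all genes, which does not use the replicate number. Of the 45 tested members, 0 were called lower and 0 higher (edgeR quasi-likelihood test, adjusted p under 0.05), beside 1.39% of all 11990 tested genes called lower and 0.1% called higher. At an unadjusted p under 0.05 there was 1 lower member, Ubl5, and 0 higher of 45, beside 866 lower and 648 higher of all 11990 genes. DESeq2 also called 0 lower and 0 higher, where it called 2.2% and 0.634% of all genes. With the replicate number as a block, edgeR called 1 member lower, Ubl5, and 0 higher. That fit called 4.39% of all genes lower and 1.97% higher. In the main test the log2 fold changes ran from -0.24 (Ubl5) to 0.19 (Timm9), with a median of -0.02, beside a median of -0.005 over all genes. Fitted values lay below 0 for 28 members (62.2%) and above 0 for 17, and below 0 for 51.2% of all tested genes.

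The intervals of the fold changes, taken from the fit without the replicate block, were narrow. The 95% interval of the fold change lay within 1.5-fold in both directions for 45 of 45 tested members, compared with 72.2% of all tested genes. It did so too for 36 of 36 nuclear complex I genes and 77 of 78 mitochondrial ribosomal protein genes. Narrow intervals are thus not particular to the members. The lowest bound was -0.54 on the log2 scale (Timm10b) and the highest 0.52 (Timm9), which correspond to 1.45-fold lower and 1.44-fold higher. These were low genes, with 1.98 to 2.68 CPM for Timm10b in KO and 1.96 to 2.85 CPM in Ctrl. The summed level of all members was 2634, 2696 and 2719 CPM in KO replicates 1 to 3, against 2656, 2624 and 2856 CPM in Ctrl replicates 1 to 3. The groups overlapped, and Ctrl replicate 3 held the highest sum.

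**Figure D1:**
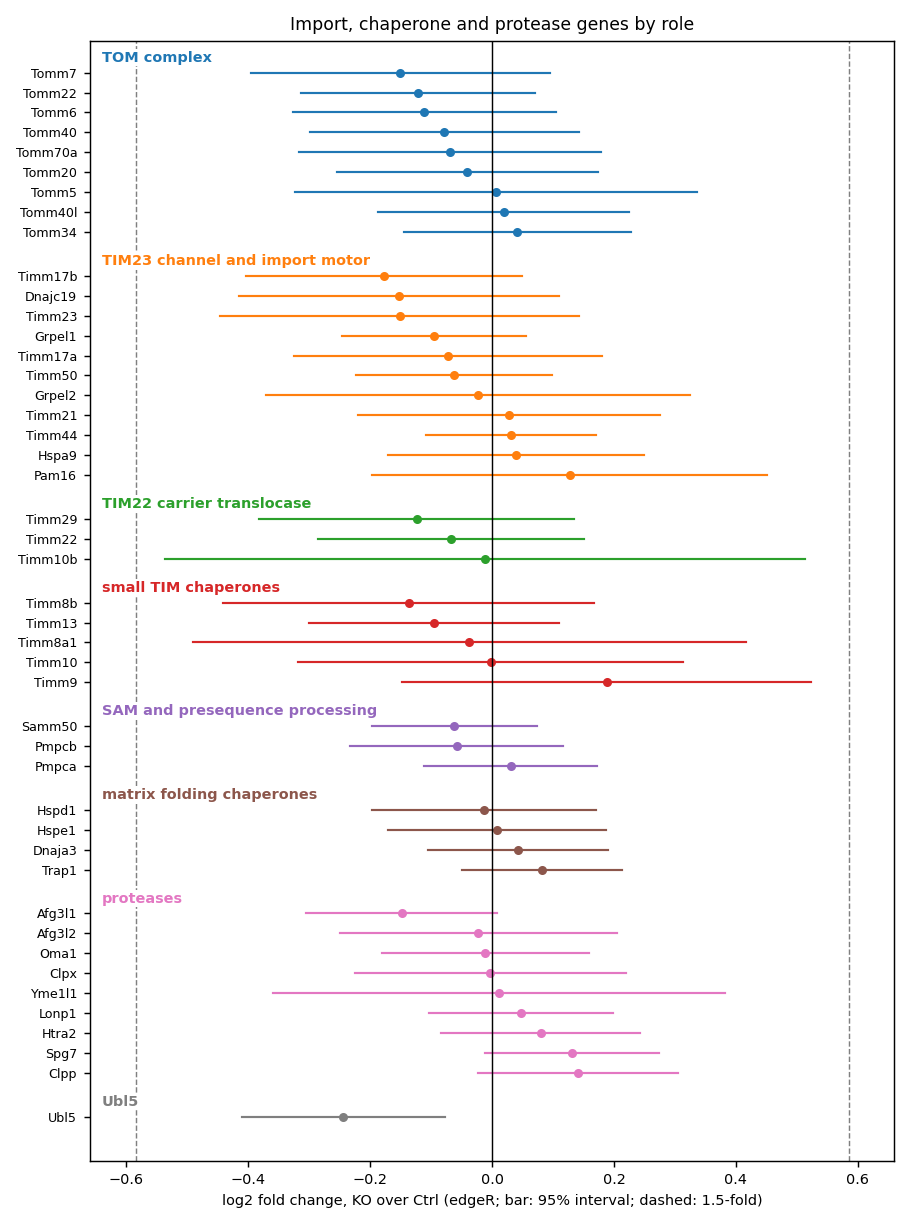
The log2 fold change of KO over Ctrl (x axis) is plotted for each of the 45 tested members, grouped by role, with points for the edgeR estimate and bars for its 95% interval. Dashed lines mark 1.5-fold in each direction. No interval crosses a dashed line, and the interval of Ubl5 is the 1 that lies wholly on a single side of 0.

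Some members carry letters before the transcript start that match known response elements. These stretches are shown because the factors that bind such elements belong to the stress response and to mitochondrial gene control. Windows of 250 bases before each annotated start were taken from RefSeq (GRCm38.p6) for 38 of the 45 tested members. Afg3l2, Grpel2, Hspa9, Htra2, Timm21, Tomm40l and Tomm7 had no window. Each motif was searched on both strands, counting a gene when any of its windows held it. The heat shock element, searched as the units GAA, TTC and GAA each parted by 2 bases of any kind, is the binding site of HSF1. It was found in 3 of 38 members (7.89%), Hspd1, Hspe1 and Timm9, and in 0.452% of 17492 protein-coding genes. Hspd1 and Hspe1 lie head to head, so their windows hold the same bases on opposite strands, and this element is 1 site and not 2. Its letters lie 89 to 72 bases before the start of Hspe1 and 144 to 127 bases before 1 of the starts of Hspd1, and those of Timm9 lie 202 to 190 bases before its start. In the sequences below, capitals mark the matching letters, which in Hspe1 and Hspd1 are 2 overlapping matches.
Hspe1, chr1:55088034-55088101, plus strand: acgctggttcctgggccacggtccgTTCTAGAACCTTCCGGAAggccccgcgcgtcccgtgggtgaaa
Hspd1, chr1:55088034-55088101, minus strand: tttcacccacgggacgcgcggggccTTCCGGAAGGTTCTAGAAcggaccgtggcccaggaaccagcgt
Timm9, chr12:71136840-71136902, minus strand: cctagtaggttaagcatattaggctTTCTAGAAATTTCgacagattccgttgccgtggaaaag

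NRF1 is a transcription factor of many nuclear genes for mitochondria, and the 8-letter core of its site, GCATGCGC, was found in Clpx, Grpel1 and Timm13. These are 3 of 38 members (7.89%), beside 3.32% of all protein-coding genes. The stretches are shown because they place this core before a protease subunit, an import motor and a small TIM gene, with capitals on the match. In Grpel1 the core lies on the opposite strand, so the capitals read GCGCATGC.
Clpx, chr9:65294149-65294206, plus strand: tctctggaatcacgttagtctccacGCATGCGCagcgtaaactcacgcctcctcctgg
Grpel1, chr5:36465124-36465181, plus strand: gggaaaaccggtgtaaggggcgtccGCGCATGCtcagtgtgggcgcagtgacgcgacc
Timm13, chr10:80901129-80901186, minus strand: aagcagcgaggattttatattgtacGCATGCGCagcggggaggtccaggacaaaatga

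The ETS core CCGGAAGT was found in Pmpcb, Timm23, Timm29 and Tomm70a, 4 of 38 members (10.5%), beside 4.26% of all genes. The composite site of ATF4 with C/EBP proteins, searched as TGATGNAA, was found in 0 of 38 members and in 3.64% of all genes. No member held matches to more than 1 of the motifs, so no matches overlapped between motifs. A match describes the letters only, and the windows leave out more distant sites.

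Of the 4 matrix folding chaperones, Hspd1, Hspe1 and Dnaja3 had levels that overlapped between the genotypes, and Trap1 did not. Hspd1 and Hspe1, with Hspa9, Lonp1 and Clpp, were taken as the classical targets of the mitochondrial unfolded protein response. Among these targets the groups failed to overlap in Clpp only. Hspd1 (ENSMUSG00000025980) encodes HSP60, the barrel that folds imported chains, and stood at 135, 127 and 139 CPM in KO replicates 1 to 3, against 142, 121 and 142 CPM in Ctrl replicates 1 to 3. KO replicate 2 and Ctrl replicate 2 were the lowest of their groups, and the log2 fold change was -0.01 ± 0.08 (SE; edgeR, adjusted p = 0.968; 95% interval -0.20 to 0.17). Hspe1 (ENSMUSG00000073676) encodes HSP10, the lid of that barrel. It stood at 69.4, 76.7 and 64.8 CPM in KO, against 69.7, 66.9 and 73.1 CPM in Ctrl (0.01 ± 0.08, adjusted p = 0.980). The highest and the lowest Hspe1 library were both KO. Hspe1 and Hspd1 have 6 and 5 pseudogenes in the gene name table, none of them in the count table, and the genes overlap by 96 bases in RefSeq. Reads from such stretches may be lost or misplaced, so their levels are less certain than their ratios between libraries.

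Trap1, the mitochondrial member of the HSP90 family, stood at 163, 160.1 and 162 CPM in KO, against 158, 149 and 151 CPM in Ctrl. Every KO library lay above every Ctrl library, but the difference was small and not called (0.08 ± 0.06, adjusted p = 0.605). Dnaja3, a matrix co-chaperone of HSPA9, had a log2 fold change of 0.04 ± 0.06. The 4 chaperone genes had a median of 0.03, and 0 of 4 passed the test.

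Hspa9 (ENSMUSG00000024359) encodes mortalin, the HSP70 that pulls chains through the TIM23 channel and also folds them. It stood at 194, 195 and 220.1 CPM in KO replicates 1 to 3, against 187, 183 and 223 CPM in Ctrl replicates 1 to 3. Replicate 3 was the highest in both genotypes, and the log2 fold change was 0.04 ± 0.09 (edgeR, adjusted p = 0.902). Hspa9 has 1 pseudogene in the gene name table. The 11 genes of the TIM23 channel and its motor had a median of -0.06, with 7 fitted below 0 and 0 called. Leaving out KO replicate 1 brought the median to -0.0067, leaving out KO replicate 3 to -0.022 and leaving out KO replicate 2 to -0.083. Timm17b, a channel subunit, had the smallest p of them. It stood at 36.1, 39.1 and 32.6 CPM in KO, against 36.1, 43.0 and 42.8 CPM in Ctrl, and the groups overlapped (-0.18 ± 0.10, adjusted p = 0.505). Its paralogue Timm17a, whose protein YME1L1 degrades under stress, had -0.07 ± 0.11. Grpel1, the nucleotide exchange factor of mortalin, had -0.10 ± 0.07, and its paralogue Grpel2 -0.02 ± 0.15. The channel gene Timm23, the receptor Timm50 and the motor tether Timm44 had -0.15, -0.06 and 0.03. Pam16 and Dnajc19, the J-domain pair that regulates the motor, had 0.13 and -0.15, and Timm21 had 0.03.

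The TOM complex had 9 tested genes with a median of -0.07, 6 of them fitted below 0 and 0 called. Tomm22, the central receptor and organiser of the pore, had the smallest p. It stood at 51.1, 54.0 and 44.97 CPM in KO, against 51.3, 55.9 and 56.2 CPM in Ctrl, and overlapped between the groups (-0.12 ± 0.08, adjusted p = 0.595). Tomm70a, the receptor for carrier proteins, had the most counts and stood at 110.1, 109 and 127 CPM in KO, against 112, 110.1 and 141 CPM in Ctrl (-0.07 ± 0.11, adjusted p = 0.836). Replicate 3 was again the highest of each genotype. The pore gene Tomm40, the presequence receptor Tomm20 and the small subunits Tomm5, Tomm6 and Tomm7 had -0.08, -0.04, 0.01, -0.11 and -0.15. Tomm40l and the cytosolic cofactor Tomm34 had 0.02 and 0.04. KO replicate 3 was the lowest of the 6 libraries for Tomm5, Tomm6 and Tomm7. An antisense gene of Tomm6, Tomm6os, is in the gene name table, and its reads cannot be told apart if counting ignored strand. Tomm20l had 0, 1 and 0 counts in KO replicates 1 to 3 and 0 in all Ctrl libraries, so no fold is given.

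The TIM22 complex, which inserts carriers into the inner membrane, had 3 tested genes with a median of -0.07. Timm29, a subunit of it, stood at 23.9, 22.3 and 26.4 CPM in KO, against 27.0, 22.6 and 29.4 CPM in Ctrl (-0.12 ± 0.11, adjusted p = 0.701). Replicate 2 was the lowest and replicate 3 the highest in both genotypes. The pore gene Timm22 had -0.07 ± 0.10 and Timm10b -0.01 ± 0.23.

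Small TIM proteins escort carriers and other hydrophobic chains between the membranes. Timm13, the partner of the TIMM8 proteins, stood at 63.7, 71.4 and 55.8 CPM in KO, against 67.2, 68.4 and 68.5 CPM in Ctrl (-0.10 ± 0.09, adjusted p = 0.712). The highest and the lowest library were both KO, and the SD was 7.80 CPM in KO and 0.677 CPM in Ctrl. Timm9, which pairs with TIMM10, stood at 6.29, 7.30 and 7.71 CPM in KO, against 5.42, 6.55 and 6.72 CPM in Ctrl (0.19 ± 0.15, adjusted p = 0.649). KO was above Ctrl in 3 of 3 same-numbered pairs, as in 2594 of all 11990 tested genes, although the groups overlapped. Timm10, Timm8b and Timm8a1 had log2 fold changes of -0.002, -0.14 and -0.04. Timm8a2 had 12, 8 and 11 counts in KO, against 7, 6 and 1 in Ctrl, and was below the filter. At these low counts every KO library lay above every Ctrl library. Fitted with no filter on low counts, the log2 fold change of Timm8a2 was 1.36 (edgeR, unadjusted p = 0.043, adjusted p = 0.457).

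Samm50, the core of the SAM complex that inserts barrel proteins into the outer membrane, stood at 137, 143 and 134 CPM in KO, against 140.4, 145 and 146 CPM in Ctrl. The groups overlapped and the log2 fold change was -0.06 ± 0.06 (adjusted p = 0.716). Pmpca and Pmpcb, the subunits of the peptidase that removes presequences, had 0.03 ± 0.06 and -0.06 ± 0.08.

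Proteases had a median of 0.01 over 9 tested genes, 4 fitted below 0 and 5 above, and 0 called. The median was -0.025 without Ctrl replicate 2 and 0.074 without Ctrl replicate 3, so its sign rests on single libraries. Lonp1 (ENSMUSG00000041168), the main soluble protease of the matrix, which also degrades TFAM, stood at 140.3, 142 and 149 CPM in KO, against 147, 131 and 139 CPM in Ctrl. The groups overlapped (0.05 ± 0.07, edgeR, adjusted p = 0.814; 95% interval -0.10 to 0.20). Clpp (ENSMUSG00000002660), the proteolytic chamber of the other soluble matrix protease, stood at 42.3, 43.4 and 40.9 CPM in KO, against 36.9, 40.8 and 37.3 CPM in Ctrl. All KO libraries were above all Ctrl libraries, with a log2 fold change of 0.14 ± 0.07 (adjusted p = 0.463). Its unfolding partner Clpx had -0.003 ± 0.10. Htra2, a protease between the membranes, had 0.08 ± 0.07, and Oma1, the stress-activated protease of the inner membrane, -0.01 ± 0.07.

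The AAA proteases of the inner membrane had fold changes on both sides of 0, and 0 were called. Afg3l1, a matrix-facing subunit that is a pseudogene in human, stood at 65.6, 67.2 and 66.4 CPM in KO, against 67.9, 75.6 and 77.4 CPM in Ctrl. Every KO library was below every Ctrl library, without a call (-0.15 ± 0.07, adjusted p = 0.421). Spg7, or paraplegin, stood at 117, 120.1 and 121 CPM in KO, against 115, 105 and 108 CPM in Ctrl, the groups again without overlap (0.13 ± 0.06, adjusted p = 0.434). Afg3l2, their common partner, had -0.02 ± 0.10. Yme1l1, which faces the space between the membranes, stood at 156, 155 and 211 CPM in KO, against 151, 153 and 213 CPM in Ctrl (0.01 ± 0.16, adjusted p = 0.988). Both libraries numbered 3 stood apart from the other 4.

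Ubl5 (ENSMUSG00000084786) was the member nearest to a call. It encodes a ubiquitin-like protein that in Caenorhabditis elegans is needed for the mitochondrial unfolded protein response and that in mammals is known for a part in splicing. Ubl5 stood at 60.4, 63.7 and 56.2 CPM in KO replicates 1 to 3, against 67.0, 72.8 and 73.8 CPM in Ctrl replicates 1 to 3, and the groups did not overlap. The level averaged 60.1 ± 3.75 CPM in KO and 71.2 ± 3.66 CPM in Ctrl (SD, n = 3 each). The log2 fold change was -0.24 ± 0.07 (SE; edgeR, adjusted p = 0.206; 95% interval -0.41 to -0.08). Since the groups did not overlap, KO had to be lower in 3 of 3 same-numbered pairs, as it was in 23.7% of all tested genes. With the replicate number as a block, edgeR called Ubl5 lower at the same size (adjusted p = 0.0432), the 1 member called lower, with 0 called higher. That fit called 4.39% of all genes lower and 1.97% higher. DESeq2 with the same block did not call it (adjusted p = 0.179) and had 0 members called lower or higher, beside 2.5% and 1.15% of all genes. The blocked edgeR call was also lost without pair 1 (adjusted p = 0.0697), pair 2 (0.0595) or pair 3 (0.182). The pairs had log2 ratios of -0.15, -0.19 and -0.39, so the third pair held the largest difference. Its libraries also had the lowest dividing cell markers of each genotype, and their part in this was not tested.

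**Figure D2:**
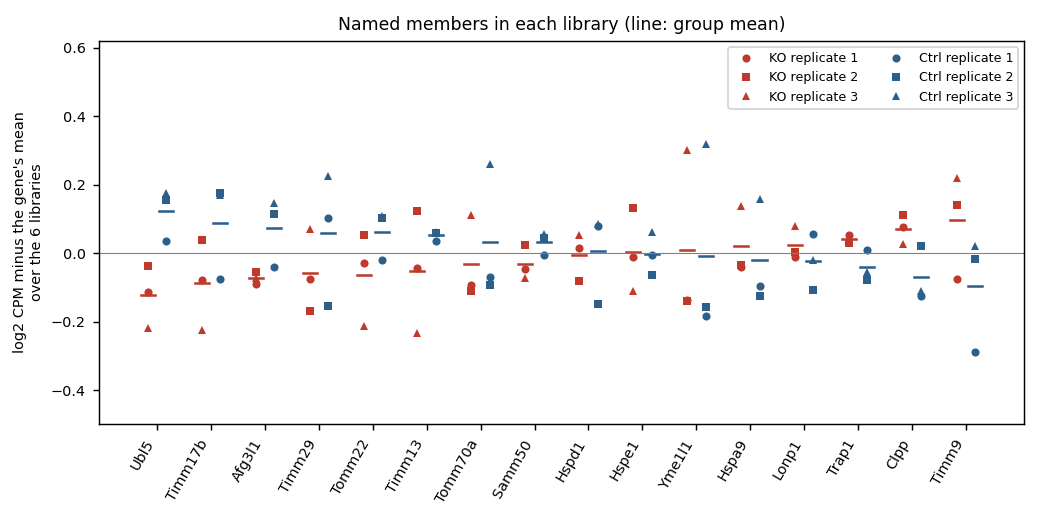
For 16 members (x axis, ordered by fold change), the y axis gives log2 CPM in each library minus the gene's mean over the 6 libraries, with KO left of Ctrl and symbols for the replicate number. Ubl5 and Afg3l1 have all KO points below all Ctrl points, Trap1 and Clpp all KO points above, and in Yme1l1 the triangles of replicate 3 stand above the rest in both genotypes.

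Across all tested members the KO and Ctrl libraries failed to overlap in 2 genes with KO lower, Ubl5 and Afg3l1. This compares with 10.4% of all tested genes with KO lower. They failed to overlap in 3 genes with KO higher, Trap1, Clpp and Spg7, against 8.63% of all tested genes. The difference between these counts and the shares over all genes was not tested.

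The replicate number of the libraries took more of the spread than the genotype in 33 of 45 members (73.3%), beside 65.8% of all tested genes. Yme1l1, Hspa9 and Tomm70a were among these members. Of the spread of log2 CPM over the 6 libraries, the number took a median of 43.2% and the genotype 16.2% over the members, against 46.7% and 19.2% over all tested genes. The number has 2 degrees of freedom and the genotype 1, so the number tends to take the larger share also where neither has an effect. These counts and medians therefore do not show that the number outweighs the genotype. Both libraries numbered 3 were above the other 4 in 9 of 45 members, compared with 15.04% of all tested genes. These were Afg3l2, Clpx, Dnaja3, Hspa9, Timm10b, Timm21, Timm44, Tomm70a and Yme1l1. In Yme1l1 the number took 99.5% of the spread and in Hspa9 91.8%. Afg3l2 stood at 80.2, 80.0 and 96.4 CPM in KO replicates 1 to 3, against 79.0, 85.7 and 95.7 CPM in Ctrl replicates 1 to 3. Both libraries numbered 3 were below the other 4 in 3 of 45 members, Timm8b, Tomm34 and Tomm5, compared with 11.4% of all tested genes. Summed markers of dividing cells were lowest in the same libraries, at 53.6 CPM in KO and 85.3 CPM in Ctrl, and their part in these differences was not tested. The labels do not say what the number stands for.

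**Figure D3:**
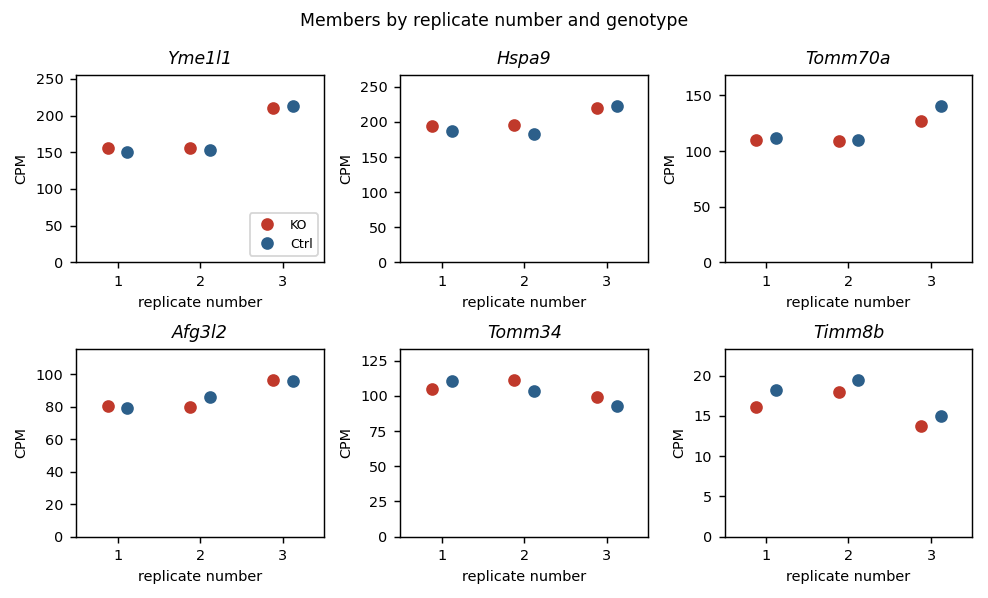
CPM (y axis, from 0) is plotted against the replicate number for 6 members, with KO in red left of Ctrl in blue. Yme1l1, Hspa9, Tomm70a and Afg3l2 are highest in both libraries numbered 3, Tomm34 and Timm8b are lowest there, and KO and Ctrl points of the same number lie close together.

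The balance within paralogue or partner pairs was compared as the log2 ratio of counts within a library, which needs no scaling between libraries. For 10 pairs the KO mean minus the Ctrl mean ran from -0.19 (Timm10 over Timm9) to 0.16 (Spg7 over Afg3l2). By a two-sided exact permutation test, whose smallest possible p with 3 against 3 libraries is 0.10, the p-values were 0.2 or more and the adjusted values 0.714 or more. The log2 ratio of Hspd1 to Hspe1 was 0.93 ± 0.19 in KO and 0.95 ± 0.09 in Ctrl (SD, n = 3 each). That of Timm17a to Timm17b was -0.58 ± 0.19 in KO and -0.69 ± 0.08 in Ctrl. That of Clpx to Clpp was 0.21 ± 0.17 in KO and 0.35 ± 0.20 in Ctrl. In these 3 pairs the difference was smaller than the SD of at least 1 genotype. The ratio of Timm10 to Timm9 was 0.07 ± 0.06 in KO and 0.26 ± 0.18 in Ctrl, a difference larger than either SD (exact permutation p = 0.2). Compared within same-numbered libraries by exact sign flips, 5 of the 10 pairs had differences of the same sign in 3 of 3 numbers, which gives the smallest possible p of 0.25. These were Timm17a over Timm17b, Spg7 over Afg3l2 and Pmpca over Pmpcb, with KO higher, and Afg3l1 over Afg3l2 and Clpx over Clpp, with KO lower. Such a design cannot pass 0.05, so these values bound nothing by themselves.

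Other genes of the same pathways were examined beside the members. These were 27 further import and protease genes, among them the metaxins, the disulfide relay, the inner membrane peptidases and the prohibitins, with a median of -0.03. By edgeR 0 were called in either direction, beside 1.39% of all tested genes lower and 0.1% higher. At an unadjusted p under 0.05, 1 was lower and 1 higher, beside 866 and 648 of all 11990 genes. DESeq2 called 0 of them, beside 2.2% and 0.634% of all genes. With shares this low, 0 calls in so short a list do not set it apart. Mtx3, a metaxin of the outer membrane, stood at 5.74, 4.63 and 5.67 CPM in KO, against 3.77, 4.18 and 3.69 CPM in Ctrl, without overlap (0.46 ± 0.16, adjusted p = 0.280). Dnajc15, a J-domain relative of DNAJC19, stood at 20.8, 23.1 and 20.3 CPM in KO, against 21.6, 30.8 and 29.4 CPM in Ctrl (-0.35 ± 0.14, adjusted p = 0.340). The groups overlapped, as Ctrl replicate 1 lay within the range of the KO libraries, while the other Ctrl libraries lay above it.

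Regulators of the mitochondrial unfolded protein response had 15 tested entries (Ddit3 under 2 gene IDs) with a median of 0.04. By edgeR 0 of them were called, beside 1.39% of all genes lower and 0.1% higher. By DESeq2 0 were called, beside 2.2% and 0.634%. At an unadjusted p under 0.05 (edgeR), 1 was lower and 1 higher, beside 866 and 648 of all 11990 genes. Hsf1, whose product binds heat shock elements, stood at 136, 134 and 129 CPM in KO, against 128, 106 and 109 CPM in Ctrl. Binding to the stretches shown above was not measured. Every KO library was above every Ctrl library, with no call (0.22 ± 0.08, adjusted p = 0.318). Cebpb, a C/EBP factor that pairs with ATF4, stood at 13.1, 21.1 and 15.4 CPM in KO, against 30.6, 17.3 and 32.3 CPM in Ctrl, and the groups overlapped through the libraries numbered 2 (-0.70 ± 0.25, adjusted p = 0.291). Those libraries also held the most macrophage marker RNA, and its part was not tested. Atf5, the closest mammalian relative of the worm regulator and named here after its values were seen, stood at 8.02, 6.52 and 8.24 CPM in KO, against 5.65, 6.68 and 6.50 CPM in Ctrl (0.28 ± 0.14, adjusted p = 0.478).

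Nuclear genes of complex I and of the mitochondrial ribosome, which assemble with products of mitochondrial DNA, had lower medians than the import genes. Complex I had a median of -0.11 over 36 tested genes with 34 fitted below 0, and the mitochondrial ribosomal proteins -0.07 over 78 with 62 fitted below 0. The import, chaperone and protease members had -0.02 with 28 of 45. By role, the TOM, TIM22, TIM23 and SAM and processing genes had medians of -0.07, -0.07, -0.06 and -0.06, near that of the ribosomal proteins. The small TIM genes had -0.04, the matrix chaperones 0.03 and the proteases 0.01. By same-numbered pair, the median KO over Ctrl log2 ratio of the members was 0.01, 0.02 and -0.13 in pairs 1 to 3, that of complex I -0.05, -0.01 and -0.24, and that of the ribosomal proteins -0.04, -0.003 and -0.16. Pair 3 had the lowest value in each list, and its median over all tested genes was -0.03. No gene of either list was called by edgeR, beside 1.39% of all genes lower and 0.1% higher. DESeq2 called 0, beside 2.2% and 0.634% of all genes. At an unadjusted p under 0.05 (edgeR), 2 of 36 and 3 of 78 were lower and 0 higher. Over all 11990 genes, 866 were lower and 648 higher. The difference between the lists was not tested. Ndufb9 and Ndufs5 of complex I had -0.23 ± 0.08 and -0.29 ± 0.12 (edgeR, adjusted p = 0.276 and 0.354), and edgeR with the block called Ndufb9 (adjusted p = 0.0398) together with 4.39% of all genes lower, while DESeq2 with the block did not call it (adjusted p = 0.223). Mrpl17 and Mrpl46 of the ribosome had -0.27 ± 0.09 and -0.21 ± 0.08 (adjusted p = 0.282 and 0.337).

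**Figure D4:**
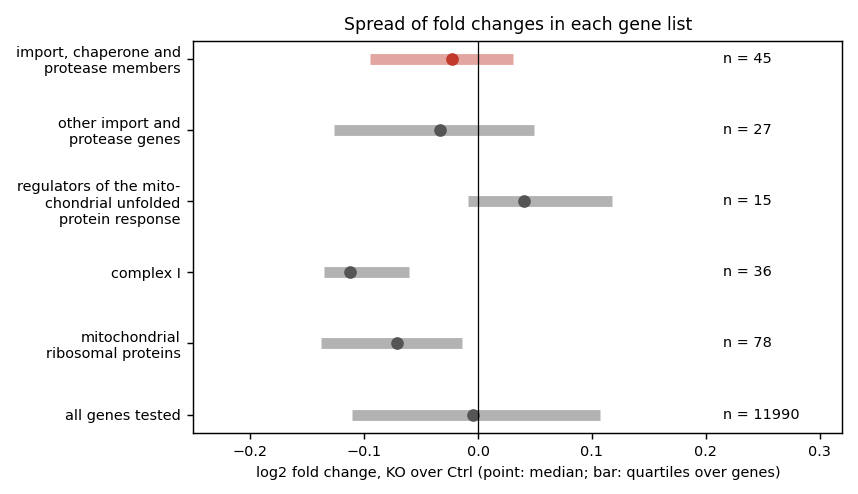
For each gene list, the point gives the median and the bar the quartiles of the log2 fold change of KO over Ctrl (x axis) over its tested genes. The bar of the import, chaperone and protease members spans 0 and is narrower than that of all genes. The bars of complex I and of the mitochondrial ribosomal proteins are also narrower than that of all genes, and lie below 0.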

How the data were processed

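Counts of reads per Ensembl gene were deposited by the authors as 1 table with a column for each RNA library, named as HTSeq counts per the labels. Per the submitters' processing notes, Bowtie2, HISAT2, SAMtools, bedtools, Cufflinks and DESeq2 were used, with builds mm9 and mm10. No source used here gives versions, the annotation or the strand setting. Of 22553 gene IDs, 22522 matched a symbol.

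The main test was run in edgeR 4.0.16 (R 4.3.3) with filterByExpr (minimum count 10, minimum total 15), TMM scaling, quasi-likelihood F test and Benjamini-Hochberg adjustment over 11990 genes, with calls at an adjusted p under 0.05. Standard errors and 95% intervals were derived from the F statistic, and the test was checked on simulated data. Ratios within pairs used counts plus 0.5. Alternatives used DESeq2 1.42.0, limma 3.58.1 (voom), other scalings, no filter, left-out libraries and a replicate block. In the shallowest library 3 counts equal 0.157 CPM. No source says that libraries of a group came from separate days or litters, so p-values cover only the variation among these pools, and some of it may be technical. Libraries of a group differed by more than sampling noise (chi-square per degree of freedom 8.75 to 27.4).

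The replicate numbers are those of the titles. Deviations from the group means correlated in each same-numbered pair (r = 0.33, 0.56 and 0.55 over all tested genes, which are not independent replicates), so the numbers were taken as pairing the libraries. Over the members alone r was 0.14, 0.39 and 0.74 in pairs 1 to 3. The value of pair 1 was below those of KO 1 with Ctrl 2 (0.32) and KO 2 with Ctrl 1 (0.22). For the members the pairing by number 1 is therefore weakly based.

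Values in every library were given for members called without or with the block, for the member with the smallest p and the one with the most counts in each role, and for Hspd1, Hspe1, Hspa9, Lonp1 and Clpp. Further genes, such as Spg7, Mtx3 or those shown for the replicate number, follow the rule for the other lists (smallest p values) or were picked with their values in view. The members and lists were chosen with earlier results of these data known. Counts carry no transcript length, so levels were not compared between genes.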

Additional observations from a re-analysis of the deposited data

How the results depend on the processing

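Under the other settings 0 members were called, with the exception of the replicate block in edgeR, where 1 member (Ubl5) was called lower. The median log2 fold change of the members ranged from -0.057 to 0.0039 with 1 library left out and was -0.052 without both libraries numbered 2. With 1 library left out, role medians ranged from -0.098 to -0.022 (TOM), -0.083 to -0.0067 (TIM23), -0.11 to -0.032 (TIM22), -0.089 to -0.0045 (small TIM), -0.068 to -0.012 (SAM and processing), 0.01 to 0.054 (matrix chaperones) and -0.025 to 0.074 (proteases). Without both libraries numbered 2, TOM at -0.15, small TIM at -0.12 and matrix chaperones at 0.0015 fell outside these ranges. TIM23, TIM22, SAM and processing, and proteases stayed inside theirs. Over all genes, 167 lower and 12 higher calls became 526 and 236 with the replicate block, 264 and 76 with DESeq2, and 300 and 138 with the block in DESeq2, an alternative added after seeing the data. Limma-voom called 3 higher, library totals as scaling 7 higher, and leaving out both libraries numbered 2 gave 54 lower and 0 higher. With 1 library left out there were 26 to 166 lower and 0 to 10 higher calls. Values near 0 changed sign. With 1 library left out the log2 fold change ranged from -0.087 to 0.037 for Hspd1, -0.049 to 0.063 for Hspe1, -0.022 to 0.13 for Hspa9, -0.15 to 0.19 for Yme1l1 and -0.14 to 0.054 for Tomm70a. The difference in log2 ratio ranged from -0.16 to 0.048 for Grpel1 over Grpel2 and from -0.10 to 0.087 for Hspd1 over Hspe1. Hspe1 was also at -0.00445 with library totals and -0.0897 without both libraries numbered 2. No reversed value of a named member had an adjusted p under 0.733, and the cause was not tested. The replicate block changed no other member's call. Timm8a2 and Tomm20l fell below the filter on low counts, so the main test does not cover them.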
